A study of Mus musculus with 4 samples.

Results

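The type I interferon antiviral genes are a list of 39 genes that cells switch on after type I interferon and that sense, block or degrade viral nucleic acid. A gene counted as measured when the array held a transcript cluster (a probe set for 1 transcribed region) whose platform annotation gives that symbol and no other. This held for 37 of the 39 genes, each with 1 cluster, among 29860 genes measured in all. Phf11d was found only on clusters that carry further symbols and Ifi44 is not listed in the annotation used here, so no value is given for either. Gene expression had been measured on arrays in regulatory T cells, the CD4 T cells that express Foxp3 and restrain immune responses, sorted from mouse spleen.

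Both groups carried the transgene B6-Tg(Foxp3EGFP-cre)1cJbs/J, labelled FOXP3-CRE, on C57BL/6 mice, in which Foxp3 control sequences drive a green fluorescent protein and Cre recombinase. In the group labelled KO it was combined with BMI1-flox, and Cre-making cells should lose Bmi1, whose protein belongs to Polycomb repressive complex 1. The group labelled WT carried the transgene without the floxed allele. There were 2 arrays in each group, KO replicates 1 and 2 and WT replicates 1 and 3, from mice aged 7 to 8 weeks and 15000 to 40000 sorted cells. The titles and the treatment field describe untreated cells, whereas the series text describes stimulation through CD3 and CD28 for 24 h, and it could not be settled which applies. Separate animals are not stated for the replicates, so p-values here reflect spread among samples that may be technical.

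Bmi1 itself read 9.58 and 9.91 on the arrays labelled KO, against 8.98 and 8.98 on the arrays labelled WT (log2 values, as all levels here). That is higher in KO, the opposite of the label, although neither the exons that its cluster covers nor those that were floxed are given. Every direction therefore rests on the labels. The array medians over all genes lay between 5.0 and 5.06. The 9 measured regulatory T cell markers read between 10.48 and 16.91 on every array, and Foxp3 has no cluster of its own. Of these, Lrrc32, which presents latent TGF-beta, read 11.18 and 10.48 in KO against 12.05 and 12.28 in WT, and Cd3e read 16.91 and 16.82 in KO against 16.28 and 16.32 in WT. Of the 7 conventional dendritic cell markers, 7 lay below the median gene on all 4 arrays, as did 7 of 9 measured B cell markers and 7 of 9 monocyte and macrophage markers. Over all genes, 14120 of 29860 did. The counts were 3 of 8 for plasmacytoid dendritic cells, 3 of 7 for plasma cells, 3 of 6 for neutrophils and 2 of 6 for NK cells. Of 2 CD8 T cell markers 1 did, while Cd8b1 read 10.71 and 11.26 in KO against 9.74 and 10.78 in WT. The neutrophil marker Cxcr2 read 8.24 and 7.01 in KO against 6.70 and 6.82 in WT.

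Type I interferons bind a receptor made of Ifnar1 and Ifnar2, whose kinases Jak1 and Tyk2 phosphorylate Stat2. Stat2 and Irf9 belong to a complex that binds the interferon-stimulated response element (ISRE) in promoters and switches on the antiviral genes. Many of these genes are also transcribed at a low level without infection, through constitutive interferon signalling.

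The antiviral genes read lower in the arrays labelled KO as a list, with Eif2ak2, Usp18 and Rsad2 furthest apart. Of the 37 genes, 31 had a lower mean in KO (47.9% of all genes) and 6 a higher one (51.1% of all genes), and the median difference was -0.28 (KO minus WT, log2), beside 0.005 over all genes. No member passed a Benjamini-Hochberg adjusted p under 0.05 in limma, where 2 of 29860 genes did (0.0067% of genes), and the smallest adjusted p of a member was 0.21. At an unadjusted p under 0.05, 11 members were lower and 0 higher. That is 29.7% of the members, against 3.81% of all genes lower and 6.45% higher at the same threshold. Both arrays labelled KO lay below both arrays labelled WT for 19 members (51.4%, against 17.5% of all genes) and above them for 2 members (5.41%, against 21.1%). A difference of -0.5 or less was found for 7 members (1.58% of all genes) and one of 0.5 or more for 0 (2.73% of all genes).

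**Figure D1:**
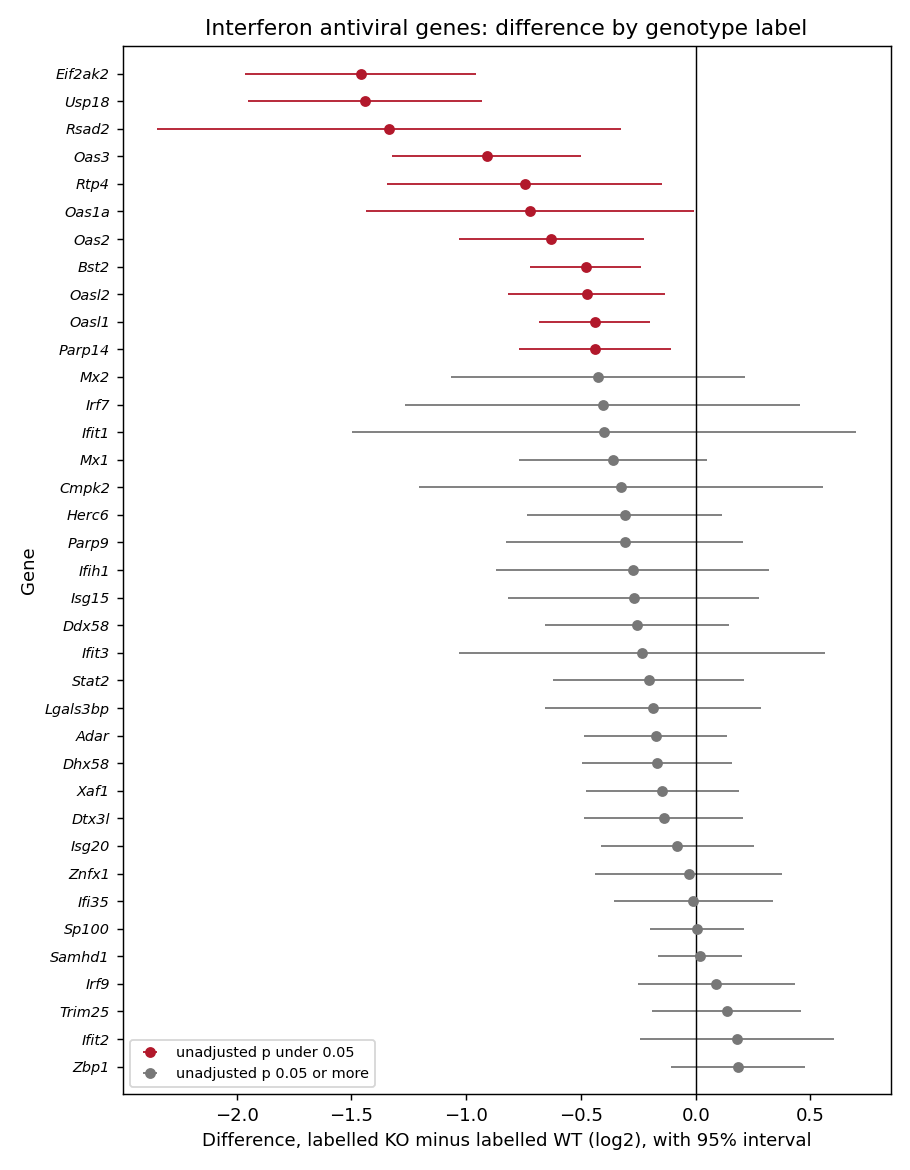
Difference between the arrays labelled KO and those labelled WT (log2, horizontal axis) for each of the 37 measured genes, sorted; bars are 95% intervals from limma, and red marks an unadjusted p under 0.05. The 11 red genes all lie below 0, from Eif2ak2 at -1.46 to Parp14 at -0.44, and the intervals of the other 26 include 0.

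These counts depended on single arrays. The members at an unadjusted p under 0.05 and lower in KO numbered 5 without KO replicate 2 (2.1% of all genes) and 7 without WT replicate 1 (3.53% of all genes). The median difference was -0.12 without WT replicate 1 and -0.44 without WT replicate 3. Without WT replicate 3, 29 members showed no overlap with KO lower, where 34.8% of all genes did. The mean over the 37 genes was 8.78 in KO replicate 1 and 8.62 in KO replicate 2, against 9.19 in WT replicate 1 and 8.92 in WT replicate 3. WT replicate 1 was the highest of the 4 arrays for 24 of 37 members (25.7% of all genes), and KO replicate 2 the lowest for 19 (20.9% of all genes). Within the groups, KO replicate 1 read above KO replicate 2 for 26 members (45.6% of all genes) and WT replicate 1 above WT replicate 3 for 28 (51.1% of all genes). In bulk samples such as these, fewer expressing cells and less RNA per cell cannot be told apart.

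**Figure D2:**
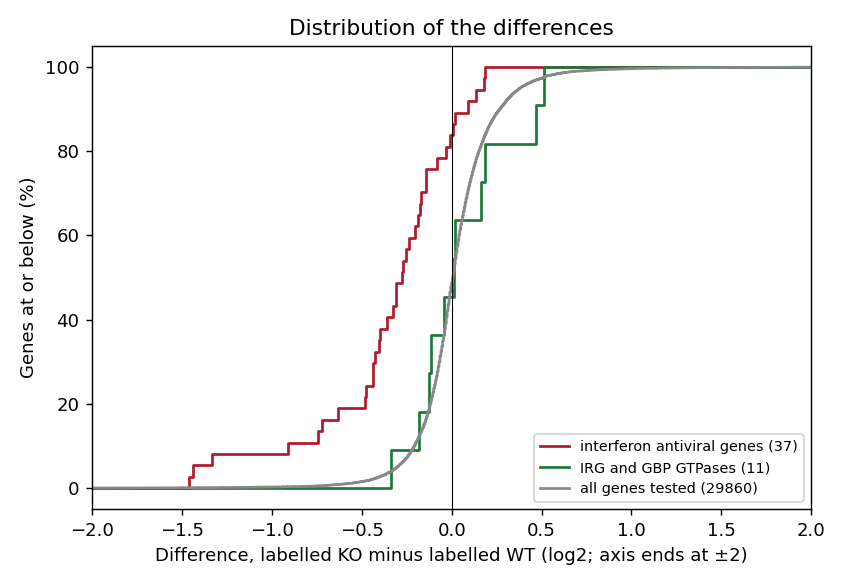
Cumulative share of genes (vertical axis, %) by their difference between arrays labelled KO and WT (log2) for the antiviral genes, the interferon-inducible IRG and GBP GTPases and all genes tested. The antiviral curve lies to the left of the others, with a median of -0.28 against 0.02 for the 11 GTPases and 0.005 for all 29860 genes.

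Eif2ak2 encodes PKR, a kinase that binds double-stranded RNA and stops translation by phosphorylating an initiation factor. Its cluster, TC1700002558.mm.1, read 6.68 and 7.19 on the arrays labelled KO, against 8.43 and 8.36 on those labelled WT. The groups did not overlap, and the 2 arrays labelled WT differed by only 0.07. The difference of -1.46 (SE 0.20) put KO at 0.364 times the WT level (95% interval 0.256 to 0.515, limma adjusted p 0.21). It was the largest difference and the smallest p among the members.

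Usp18 encodes the protease that removes ISG15 from proteins and, by binding Ifnar2, restrains the receptor. Its cluster, TC0600001369.mm.1, read 10.61 and 10.37 in KO, against 12.17 and 11.69 in WT, again without overlap. The difference was -1.44 (SE 0.20), which put KO at 0.369 times WT (95% interval 0.259 to 0.525, limma adjusted p 0.21). The rest of the ISG15 system was closer together. Isg15, the ubiquitin-like modifier itself, read 8.81 and 8.71 in KO, against 9.31 and 8.75 in WT, so that only WT replicate 1 stood above the others. Its difference of -0.27 (SE 0.21) was 0.01 without WT replicate 1. Herc6, the main ISG15 ligase in mice, differed by -0.31 (SE 0.17) without overlap. Trim25, a ubiquitin ligase for the sensor RIG-I, differed by 0.14 (SE 0.13), with both arrays labelled KO the higher ones.

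All 5 oligoadenylate synthetase genes of the list were lower in KO without overlap (17.5% of all genes) and had an unadjusted p under 0.05 (3.81% of all genes lower). None passed the adjusted threshold. Oas1a, Oas2 and Oas3 make the short adenylates that activate RNase L, which degrades RNA, and Oasl1 and Oasl2 are relatives with ubiquitin-like domains. Oas3 read 6.13 and 5.75 in KO, against 6.91 and 6.79 in WT, a difference of -0.91 (SE 0.16, limma adjusted p 0.286). Oas2 read 4.99 and 4.85 in KO, against 5.75 and 5.35 in WT (-0.63, SE 0.16). Oas2 lay below the median gene on the arrays labelled KO, and the table holds no background measure to set it against. Oas1a read 8.16 and 7.36 in KO, against 8.39 and 8.57 in WT, a difference of -0.72 (SE 0.28) with a 95% interval of -1.43 to -0.01. Without KO replicate 2 the difference was -0.32.

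Oasl1 was the most even of the synthetases on the list, at 5.44 and 5.44 in KO against 5.90 and 5.86 in WT (-0.44, SE 0.10, limma adjusted p 0.298). Oasl2 read 5.34 and 5.34 in KO, against 5.97 and 5.66 in WT (-0.48, SE 0.13). Both genes were fairly dim, with mean levels at percentile 57.6 (Oasl1) and 56.8 (Oasl2) of all genes. How much of their evenness reflects background was not tested. Probes for near-identical copies can share signal, and the closest copy of Oas1a with a cluster of its own, Oas1g, read 7.24 and 6.88 in KO against 7.31 and 7.62 in WT (-0.41, SE 0.19). Among the 12 measured paralogs of members, 9 were lower in KO (47.9% of all genes) and 3 higher (51.1% of all genes). The higher ones were all Oas1 copies outside the list: Oas1b (0.125, SE 0.19), Oas1d (0.21, SE 0.12) and Oas1h (0.035, SE 0.11). Oas1c, Oas1e, Oas1f and Oas1g were lower, so the other Oas1 copies were split in direction. Of the 12, 0 had an unadjusted p under 0.05 (3.81% of all genes lower, 6.45% higher). Without overlap, 5 were lower (17.5% of all genes) and 0 higher (21.1% of all genes).

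**Figure D3:**
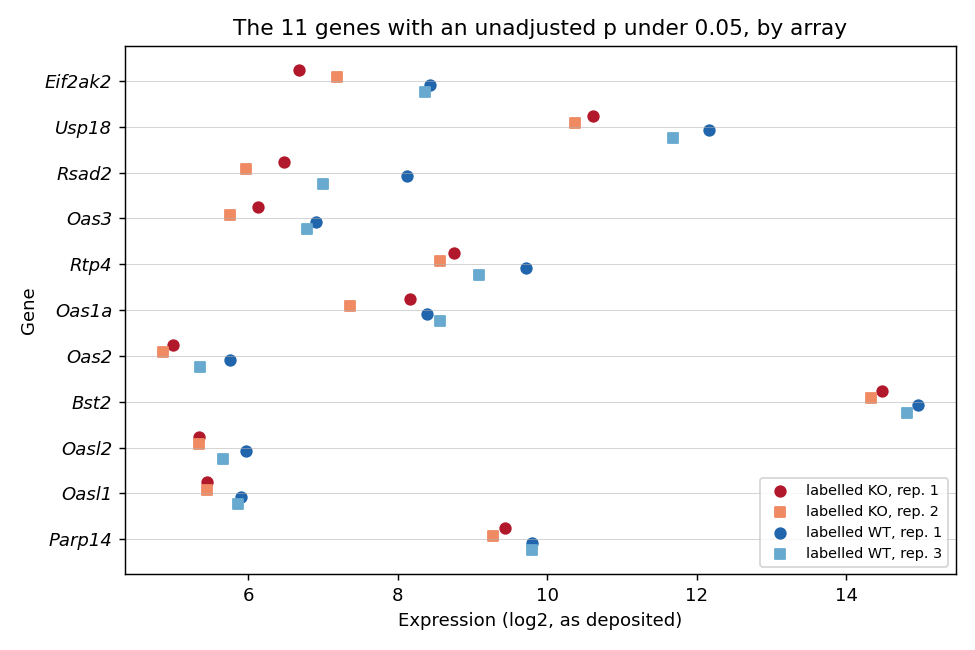
Expression (log2, as deposited, horizontal axis) on each of the 4 arrays for the 11 genes with an unadjusted p under 0.05; red and orange are the arrays labelled KO, dark and light blue those labelled WT. In each gene both KO points lie left of both WT points, by the widest gap for Eif2ak2 (6.68 and 7.19 against 8.43 and 8.36).

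The IFIT genes bind viral RNA or translation factors and, unlike Eif2ak2, did not separate the groups. Ifit1 read 8.34 and 7.87 in KO, against 9.13 and 7.88 in WT. Ifit3 read 6.51 and 6.20 in KO, against 7.04 and 6.14 in WT, and its near-identical copy Ifit3b 5.70 and 5.15 against 5.89 and 5.42. In both, WT replicate 1 was the highest array and WT replicate 3 lay inside or below the KO range. The differences of -0.40 for Ifit1 (SE 0.43) and -0.24 for Ifit3 (SE 0.31) were 0.23 and 0.22 without WT replicate 1. Ifit2 read 9.88 and 9.52 in KO, against 9.55 and 9.49 in WT, a difference of 0.18 (SE 0.17). Its 95% interval of -0.24 to 0.60 leaves out a reduction of the size seen for Usp18.

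Rsad2 and Cmpk2, an adjacent gene pair, showed both patterns. Rsad2 encodes viperin, which makes a chain-terminating nucleotide, and Cmpk2 a mitochondrial nucleotide kinase. Rsad2 read 6.48 and 5.97 in KO, against 8.12 and 7.00 in WT, with no overlap but a spread of 1.12 between the arrays labelled WT. Its difference was -1.34 (SE 0.40), or 0.396 times WT (95% interval 0.197 to 0.798, limma adjusted p 0.389), and it was -0.78 without WT replicate 1. Cmpk2 read 7.79 and 7.75 in KO, against 8.62 and 7.57 in WT, and its difference of -0.33 (SE 0.35) was 0.20 without WT replicate 1. The other enzymes of nucleotides and nucleic acids had smaller differences. Adar, the RNA editing enzyme, differed by -0.18 (SE 0.12), with 9.30 and 9.31 in KO against 9.48 and 9.48 in WT. The RNA exonuclease Isg20 differed by -0.08, the RNA sensor Znfx1 by -0.03 and the deoxynucleotide hydrolase Samhd1 by 0.02, with 95% intervals that all included 0.

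The pattern of Ifit1 recurred in 10 members, itself included, with WT replicate 1 the highest array and WT replicate 3 not above both arrays labelled KO. They were Parp9, Isg15, Stat2, Irf7, Ifih1, Lgals3bp, Cmpk2, Ifit1, Ifit3 and Isg20, 27% of the members, against 17.2% of all genes. Measured from WT replicate 3 alone, the KO mean was lower for 29 of 37 members, with a median of -0.12, and 45.5% of all genes had a lower KO mean on that measure. Measured from WT replicate 1 the median was -0.44.

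**Figure D4:**
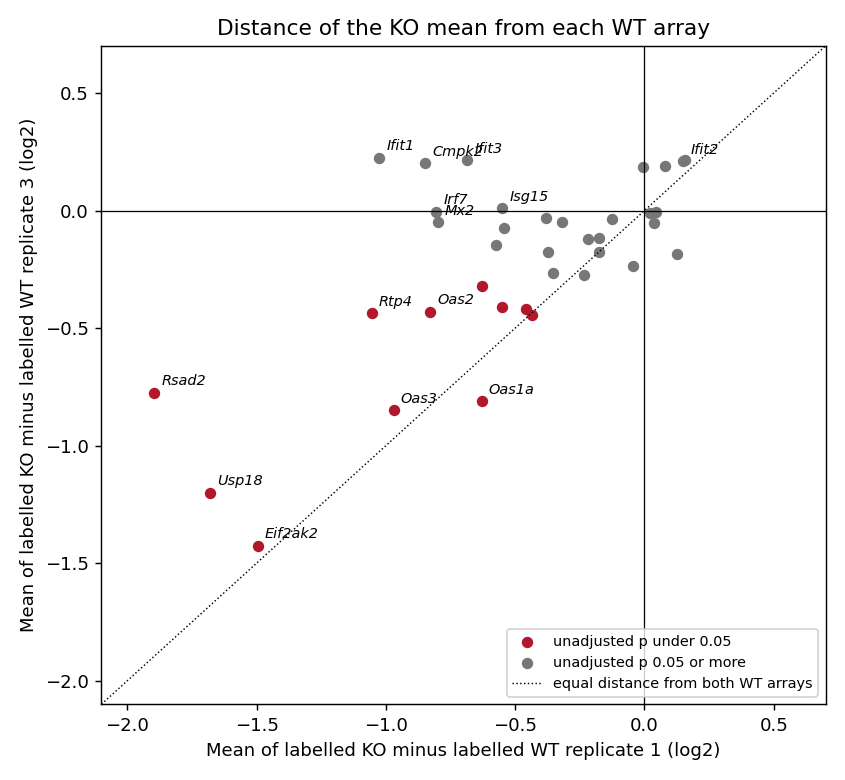
Mean of the arrays labelled KO minus WT replicate 1 (horizontal axis, log2) and minus WT replicate 3 (vertical axis, log2) for each of the 37 genes; the dotted line marks equal distance from both arrays. Eif2ak2 and Oas3 lie near that line, whereas Ifit1, Cmpk2 and Ifit3 lie well below 0 on the horizontal axis and slightly above 0 on the vertical one.

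Of the 3 membrane and secreted proteins, Bst2 and Rtp4 were lower in KO without overlap (17.5% of all genes), and none passed the adjusted threshold. Bst2, or tetherin, which holds budding virus at the cell surface, read 14.48 and 14.34 in KO, against 14.96 and 14.82 in WT (-0.48, SE 0.10, limma adjusted p 0.288). The groups did not overlap, and the arrays of each group differed by 0.14. Rtp4, a receptor transport protein, read 8.75 and 8.56 in KO, against 9.71 and 9.09 in WT (-0.75, SE 0.24, limma adjusted p 0.406). Lgals3bp, a secreted glycoprotein, read 8.70 and 8.34 in KO, against 8.84 and 8.57 in WT, with overlap.

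Parp14, a mono-ADP-ribosyltransferase, read 9.43 and 9.28 in KO, against 9.79 and 9.80 in WT (-0.44, SE 0.13, limma adjusted p 0.389), again without overlap. Parp9 and Dtx3l, which work together as a ubiquitin ligase, differed by -0.31 (SE 0.20) and -0.14 (SE 0.14), and Parp9 overlapped between the groups. The Mx GTPases, which block incoming virus, were both lower without overlap (17.5% of all genes), and neither had an unadjusted p under 0.05. Mx1 read 4.84 and 4.91 in KO, against 5.45 and 5.02 in WT (-0.36, SE 0.16), and Mx2 read 5.52 and 5.58 against 6.35 and 5.60 (-0.43, SE 0.25), so only 0.02 parted KO replicate 2 from WT replicate 3. RefSeq lists both Mx1 and Mx2 as transcribed pseudogenes in the C57BL/6J assembly, and Mx1 lay below the median gene on some arrays.

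Of the 7 sensors and transcription factors of the list, 0 had an unadjusted p under 0.05 (3.81% of all genes lower, 6.45% higher). Among the sensors of viral RNA, Ddx58 (RIG-I) read 10.34 and 10.01 in KO, against 10.41 and 10.45 in WT (-0.26, SE 0.16). Ifih1 (MDA5) differed by -0.28 (SE 0.23) with overlap and Dhx58 (LGP2) by -0.17 (SE 0.13) without it. Zbp1, a sensor of Z-form nucleic acid, lay the other way at 11.22 and 11.21 in KO against 11.06 and 11.00 in WT (0.19, SE 0.11). Stat2 read 9.45 and 9.51 in KO, against 9.86 and 9.51 in WT (-0.21, SE 0.16). Irf7, which amplifies interferon production, read 8.37 and 7.74 in KO, against 8.86 and 8.06 in WT, a difference of -0.41 (SE 0.34) whose 95% interval ran from -1.26 to 0.45. Irf9 differed by 0.09 (SE 0.13). The limma adjusted p of these 7 genes lay between 0.664 and 0.887.

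Of the remaining induced genes, Xaf1, an antagonist of an apoptosis inhibitor, read 8.28 and 8.13 in KO, against 8.38 and 8.32 in WT (-0.15, SE 0.13). Ifi35 differed by -0.01 (SE 0.14) and the nuclear body protein gene Sp100 by 0.005 (SE 0.08). On the deposited scale, the 95% intervals of Sp100, -0.20 to 0.21, and Samhd1, -0.16 to 0.20, leave out differences of the size seen for the listed oligoadenylate synthetases. These values depended on the scaling. After a further quantile normalization, Sp100 was -0.14 (SE 0.08) and Samhd1 -0.18 (SE 0.07).

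**Figure D5:**
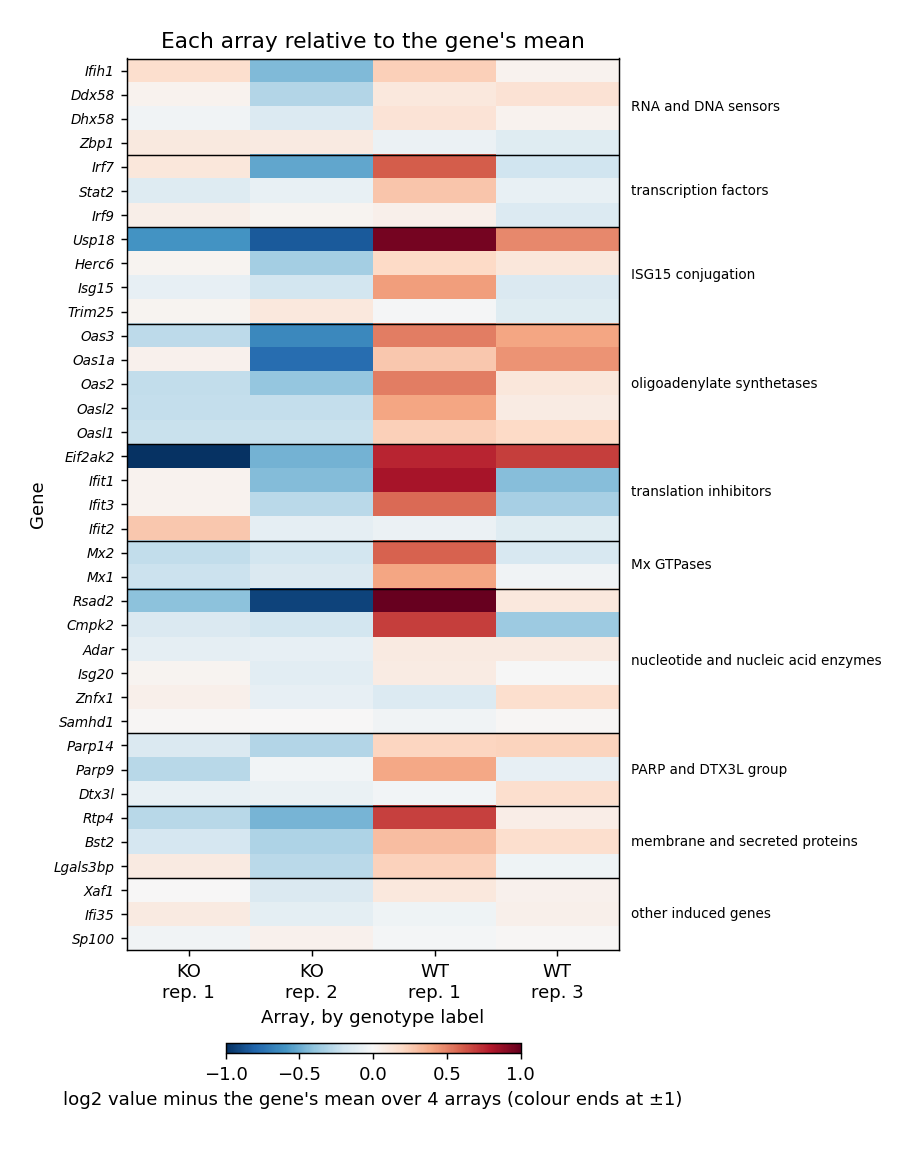
Each array's log2 value minus the gene's mean over the 4 arrays (colour, ending at ±1) for the 37 genes, in rows by role, with the arrays labelled KO left of those labelled WT. All 5 oligoadenylate synthetase genes of the list are above their mean on both WT arrays, whereas Ifit1, Ifit3, Cmpk2 and Irf7 are above it most of all on WT replicate 1.

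The promoters of several members carry the ISRE core, and 5 are shown because they span the 2 patterns: Eif2ak2, Oas3 and Bst2 separated the groups, while Isg15 and Ifit1 were high mainly in WT replicate 1. The RefSeq windows (build GRCm38.p6) run from 250 bases before the start to 50 after it, and 28 of the 37 members have at least 1. The 9 others are Usp18, Oas2, Parp14, Rtp4, Mx1, Mx2, Zbp1, Parp9 and Dhx58. The core searched was GAAA, any 2 bases, then GAAA, on both strands, where the other strand reads TTTC, any 2 bases, then TTTC. It was found in 11 of the 28 members (39.3%) and in 3.99% of the 27025 genes with a window (3.44% of 32851 windows). Matches are in capitals, and overlapping matches run together:
Eif2ak2, chr17:78882523-78882822, minus strand: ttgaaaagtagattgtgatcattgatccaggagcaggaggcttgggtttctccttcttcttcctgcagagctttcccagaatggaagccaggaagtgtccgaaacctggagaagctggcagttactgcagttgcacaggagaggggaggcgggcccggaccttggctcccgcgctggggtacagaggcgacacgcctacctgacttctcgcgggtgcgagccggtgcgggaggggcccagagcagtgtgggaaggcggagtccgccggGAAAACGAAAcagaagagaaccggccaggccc
Oas3, chr5:120777610-120777909, minus strand: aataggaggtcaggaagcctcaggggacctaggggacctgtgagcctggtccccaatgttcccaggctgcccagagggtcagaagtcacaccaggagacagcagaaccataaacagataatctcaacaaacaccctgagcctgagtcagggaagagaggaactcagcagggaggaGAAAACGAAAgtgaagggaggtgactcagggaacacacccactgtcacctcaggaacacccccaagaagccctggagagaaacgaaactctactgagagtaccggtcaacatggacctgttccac
Bst2, chr8:71537423-71537722, minus strand: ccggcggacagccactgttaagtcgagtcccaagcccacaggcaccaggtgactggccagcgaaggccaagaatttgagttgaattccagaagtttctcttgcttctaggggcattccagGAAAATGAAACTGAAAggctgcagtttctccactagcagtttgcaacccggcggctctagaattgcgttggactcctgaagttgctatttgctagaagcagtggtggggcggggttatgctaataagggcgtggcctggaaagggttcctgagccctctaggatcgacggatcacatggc
Isg15, chr4:156200769-156201068, minus strand: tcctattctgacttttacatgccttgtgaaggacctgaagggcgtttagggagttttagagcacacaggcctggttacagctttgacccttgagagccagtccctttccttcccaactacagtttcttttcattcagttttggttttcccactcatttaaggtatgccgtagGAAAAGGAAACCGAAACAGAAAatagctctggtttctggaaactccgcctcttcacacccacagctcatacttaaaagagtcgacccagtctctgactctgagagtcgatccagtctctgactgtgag
Ifit1, chr19:34640639-34640938, plus strand: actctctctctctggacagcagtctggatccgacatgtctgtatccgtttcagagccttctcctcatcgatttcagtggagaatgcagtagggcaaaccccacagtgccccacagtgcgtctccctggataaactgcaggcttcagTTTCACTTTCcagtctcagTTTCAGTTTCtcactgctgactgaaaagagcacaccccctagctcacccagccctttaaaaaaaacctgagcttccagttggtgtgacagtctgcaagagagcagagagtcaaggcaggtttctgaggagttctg

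In Isg15, 3 overlapping matches form 1 run that begins 78 bases before the start, and in Ifit1 the 2 matches lie on the other strand, the first beginning at -104. In Oas3 the match begins at -75, in Bst2 the first of 2 overlapping matches at -130, and in Eif2ak2 the single match lies 18 bases after the start. The 11 members with a match were all lower in KO, with a median difference of -0.40, and 12 of the 17 without one were lower, with a median of -0.14. Over all genes, 53% of the 690 measured genes with a match were lower in KO (median -0.01), against 50.7% of the 17177 without one (median -0.005). Oasl1 and Oasl2, which separated the groups, have no match in their windows. These are letters in a window, and no factor was measured there.

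Upstream of the list, the receptor genes overlapped between the groups. Ifnar1 read 11.02 and 11.06 in KO, against 11.05 and 11.12 in WT, and Ifnar2 read 13.81 and 13.81 against 13.89 and 13.74. The kinase gene Jak1 differed by -0.04 (SE 0.07). These values depended on the scaling. After a further quantile normalization, Ifnar1 was -0.13 (SE 0.11), Ifnar2 -0.17 (SE 0.11) and Jak1 -0.24 (SE 0.07). The other receptor kinase, Tyk2, read 7.87 and 7.67 in KO against 8.19 and 8.19 in WT (-0.42, SE 0.13, limma adjusted p 0.411). Socs1, an inhibitor of these kinases, differed by -0.37 (SE 0.11, limma adjusted p 0.384). Of the 16 measured receptor and signalling genes, 2 had an unadjusted p under 0.05, Socs1 and Tyk2, both lower in KO, where 3.81% of all genes were lower and 6.45% higher at that threshold.

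Interferon genes themselves were dim. Of 18 measured ligand genes, 14 lay below the median gene on all 4 arrays, Ifnb1 among them (4.03 and 4.39 in KO, 4.17 and 4.56 in WT). Ifna4 read 5.30 and 5.44 in KO, against 6.09 and 5.92 in WT (-0.64, SE 0.12, limma adjusted p 0.286), and Ifna7 differed by -0.35 (SE 0.09). Among 17 sensors and adaptors outside the list, 2 had an unadjusted p under 0.05, both lower in KO, beside the same shares of all genes (3.81% lower, 6.45% higher). These were Tlr7, a receptor for single-stranded RNA, at 11.49 and 11.47 in KO against 12.24 and 12.01 in WT (-0.65, SE 0.13), and its adaptor Myd88 (-0.34, SE 0.13).

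The IRG and GBP GTPases, which interferons also induce and which attack intracellular vacuoles, were split in direction. Of 22 listed, 11 were measured. Of these, 6 were higher in KO (51.1% of all genes) and 5 lower (47.9% of all genes), with a median difference of 0.02. The sign of that median was not stable. It was -0.08 after a further quantile normalization and ran from -0.065 to 0.095 when 1 array was left out. Igtp read 13.58 and 13.73 in KO, against 13.17 and 13.20 in WT (0.47, SE 0.10, limma adjusted p 0.295). Iigp1 read 9.02 and 9.04 in KO, against 8.54 and 8.49 in WT (0.52, SE 0.12, limma adjusted p 0.338). After the further quantile normalization, Igtp was 0.29 (SE 0.10) and Iigp1 0.49 (SE 0.12). On the deposited scale, Igtp and Iigp1 were the 2 GTPases with an unadjusted p under 0.05, where 6.45% of all genes were higher and 3.81% lower. The difference between the lists was not tested.

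Among 55 other measured interferon-stimulated genes, 36 were lower and 19 higher in KO (47.9% and 51.1% of all genes), with a median difference of -0.06. At an unadjusted p under 0.05, 8 were lower and 1 higher (3.81% and 6.45% of all genes). The lower ones include Gvin1, a very large interferon-induced GTPase (13.13 and 12.57 in KO, 13.84 and 13.74 in WT), Slfn5 (8.74 and 8.79 against 9.41 and 9.34) and Ifi208 (-0.78, SE 0.15). Ifitm2, an inhibitor of viral entry, was the higher one, at 7.61 and 7.34 in KO against 6.40 and 6.70 in WT (0.93, SE 0.17, limma adjusted p 0.286). The widest gaps, named after their values were seen, were in a pair of TRIM genes, and 1 array set their size. Trim12a read 9.75 and 6.40 in KO, against 10.99 and 10.84 in WT (-2.84, SE 1.05), and Trim12c read 10.74 and 8.02 in KO, against 11.95 and 12.04 in WT (-2.62, SE 0.85). KO replicate 2 lay far below the other 3 arrays in both. Ifi206 read 7.25 and 7.61 in KO, against 11.56 and 7.52 in WT, so WT replicate 1 stood alone, and in Ifi213 (5.75 and 5.43 in KO, 7.44 and 5.93 in WT) the same array was highest. Trim30d (9.76 and 9.25 in KO, 10.49 and 10.40 in WT) and Trim30a (11.08 and 10.67 in KO, 11.75 and 11.38 in WT) were also lower in KO, with KO replicate 2 the lowest array, as in Gvin1. Trim12a, Trim12c, Trim30a, Trim30d and Gvin1 are all among the 8 lower genes counted above. Whether the genes of that count vary independently of each other was not tested. The labels give C57BL/6 for both groups, and the strain background of each sample was not tested.

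Markers of other cells gave the following values beside these results. The 8 measured plasmacytoid dendritic cell markers, a cell type known for interferon production, averaged 5.39 and 5.35 in KO against 5.35 and 5.27 in WT. Of these, 5 were higher in KO (51.1% of all genes), 2 lower (47.9% of all genes) and 1 equal. Ccr9, with the smallest p of the 8, read 6.42 and 6.53 in KO against 6.36 and 6.00 in WT. Siglech, 1 of the 2 lower ones, read 5.71 and 5.73 in KO against 5.82 and 5.76 in WT. The 9 monocyte and macrophage markers averaged 4.70 and 4.75 in KO against 4.80 and 4.68 in WT. The 7 plasma cell markers averaged 6.88 and 6.78 in KO against 6.43 and 6.60 in WT, with 6 of 7 higher in KO (51.1% of all genes). Of the 7, 2 had an unadjusted limma p under 0.05, Jchain and Mzb1, both higher in KO (6.45% of all genes). Jchain read 7.66 and 7.49 in KO against 6.62 and 6.47 in WT, while Irf4, Xbp1 and Prdm1 overlapped between the groups. The 6 NK cell markers split into 3 lower and 3 higher in KO (47.9% and 51.1% of all genes), with a median difference of 0.01. The widest of them, Eomes, read 7.37 and 8.49 in KO against 6.80 and 6.91 in WT. The part of other cells' RNA in the antiviral differences was not tested.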

How the data were processed

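The deposited table holds log2 values of 65528 transcript clusters on 4 arrays, made by the authors with RMA and Transcriptome Analysis Console per the submitters' processing notes. Base 2 is inferred from RMA's usual output and from a range of 1.82 to 19.38. Probe background, genome build and batches were not stated. The number of arrays limits the precision. Clusters were named through the platform annotation: 30390 had 1 symbol, 2127 had several and were not used, and 33011 had none there. Symbols were updated through RefSeq (GRCm38.p6), and the brightest cluster of each gene was kept, which left 29860 genes.

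Differences are KO minus WT from limma 3.58.1 in R 4.3.3 (lmFit and trended eBayes), tested two-sided and adjusted by Benjamini-Hochberg over all 29860 genes and a threshold of 0.05. The median SE of a difference was 0.118. With 2 arrays a group, the smallest two-sided p of an exact permutation test is 0.333. The members, the other lists and the rule for named genes (all members, and up to 4 genes of smallest p in each other list, with the receptor genes) were chosen with earlier results of these data known, so their direction is not independent evidence. Alternatives covered scaling, a filter on dim genes, cluster choice, the variance model and leaving out each array.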

Additional observations from a re-analysis of the deposited data

How the results depend on the processing

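No paired analysis was possible because the 2 groups share only replicate number 1. No member passed an adjusted p under 0.05 under any alternative, and the smallest adjusted p was 0.103 (Eif2ak2) among genes at or above the median gene. All 11 members with an unadjusted p under 0.05 kept their direction in every alternative, and 27 of 37 members did. For these 11, leaving out 1 array could not turn the direction, because their groups did not overlap. The variance model, the gene filters and the cluster choice leave a member's difference unchanged. Only the scaling alternatives could therefore have turned these 11. Over all genes, limma calls numbered 2 as reported, 0 after a further quantile normalization, 0 with robust settings, 0 without a trend, 1 after median-centring, 4 over every cluster, 14 among brighter genes, 1 among protein-coding genes (an alternative added after seeing the data, with 35 of the 37 members) and 7 at a threshold of 0.10. Leaving out 1 array gave 0 to 0 calls over all genes, 5 to 15 members lower at an unadjusted p under 0.05 (2.1% to 3.95% of all genes), 20 to 29 members lower without overlap (30.1% to 34.8% of all genes, against 17.5% with all 4 arrays) and member medians of -0.44 to -0.12. These 4 fits assume that the lone array of a group varies like the others.

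Of the 37 members, 10 turned direction in an alternative, Ifit1 (-0.40), Cmpk2 (-0.33), Ifih1 (-0.28) and Isg15 (-0.27) among them. After quantile normalization Samhd1 was -0.18 and Sp100 -0.14, and after median-centring Sp100 was -0.01. Over the arrays left out, the range was -0.005 to 0.045 for Samhd1, -0.035 to 0.045 for Sp100, -0.58 to 0.03 for Ifih1, -0.19 to 0.13 for Znfx1, -0.11 to 0.085 for Ifi35, -0.55 to 0.01 for Isg15, -1.03 to 0.23 for Ifit1, -0.69 to 0.22 for Ifit3, -0.85 to 0.20 for Cmpk2, -0.08 to 0.07 for Ifnar2 and -0.005 to 0.19 for Irf9. The cause was not tested. Each group has 2 arrays, and the table holds no background measure for dim genes such as Oas2 and Mx1.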

Other observations

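In neighbouring members, the log2 gap between the genes on each array shows where they changed unequally. Cmpk2 minus Rsad2 was 1.31 and 1.78 on the arrays labelled KO, against 0.50 and 0.57 on those labelled WT, so the gap was wider on both arrays labelled KO. Ifit1 minus Ifit3 was 1.83 and 1.67 in KO, against 2.09 and 1.74 in WT. Ifit2 minus Ifit3 was 3.37 and 3.32 in KO, against 2.51 and 3.35 in WT, where WT replicate 1 stood alone. Oasl1 minus Oasl2 stayed between -0.07 and 0.20 on the 4 arrays. None of these gaps was tested.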
